A study of Mus musculus with 59 samples.

Results

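Genes that mark cerebellar granule cells, or that these cells use to build their synapses, were followed through 5 brain regions and 3 genotypes. They were Neurod1, Zic1, Zic2, Zic4, Pax6, Cbln1, Cbln3, Reln, Calb2 and Chn2, 10 of the 54232 mouse genes in the count files. These 10 were chosen by name, but with earlier results of these data known. RNA was sequenced from the cortex, striatum, hippocampus, brainstem and cerebellum of 12 mice of the C57BL/6 strain aged 10 weeks, giving 59 libraries. The wild-type mice are written WT-220, WT-221, WT-70 and WT-77. Mice of the genotype Atxn1 154Q/2Q (154Q-76, 154Q-75, 154Q-71 and 154Q-69) carry a knock-in expansion of 154 glutamine codons in 1 Atxn1 allele beside a 2Q allele, and are used as a model of spinocerebellar ataxia type 1 (SCA1). Mice of the genotype Atxn1 154Q[V591A;S602D]/2Q carry the same expansion with 2 substitutions in the AXH domain of ATXN1, made to disrupt its binding to the repressor Capicua (CIC), and are written 154Q-AXH-218, 154Q-AXH-217, 154Q-AXH-209 and 154Q-AXH-207, the number being that of the mouse. Groups held 4 libraries, 1 per mouse, except the 154Q-AXH brainstem, which had 3 (154Q-AXH-217 has no library there). The expanded alleles are carried in every cell, and the libraries come from whole dissected regions. Within a region, p-values measure the spread between mice. In fits across regions, which hold up to 5 libraries of 1 mouse, they measure the spread between libraries unless the mouse is a block. All 10 genes passed the filter on low counts in every region.

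Granule cells are the small glutamatergic neurons that make up most of the cerebellum. They arise from precursors of the rhombic lip, settle in the granule cell layer, receive mossy fibre input, and send parallel fibres onto Purkinje cells. Transcription factors of the Neurod, Zic and Pax families guide their formation and remain on in the mature cell. Their parallel fibres are held to Purkinje cell spines by the cerebellins, secreted proteins that bind neurexin on the axon and a receptor on the spine.

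In units of 1e+06 gene counts, depth per library was 64.4 to 106 for cerebellum, 75.4 to 112 for brainstem, 69.5 to 107 for hippocampus, 28.1 to 54.7 for striatum and 34.5 to 46.2 for cortex. Some libraries stood apart. The hippocampal library of mouse 154Q-76 held brainstem markers at a summed 143 CPM (gene counts per 1e+06 counts of the library), against 2.03 to 4.29 in the other 11 hippocampal libraries, and together with the cortical library of WT-221 it was 1 of 2 libraries whose levels of the sex-linked genes Xist and Ddx3y did not match the other libraries of the same mouse. The cortical files of 154Q-76 and 154Q-AXH-207 are named for each other, so these samples were used as their labels give them and also exchanged or left out. All Atxn1 154Q/2Q mice have numbers under 100, all 154Q-AXH mice have numbers over 200, and the WT mice have both, so the mutant genotypes share no series, and their difference can be separated from that between the series only through the WT mice, 2 in each. By Xist and Ddx3y, 154Q-75 and 154Q-AXH-217 had the female pattern in all their libraries. The other 10 mice had the male pattern, apart from the 2 libraries above. Each mutant genotype thus held 1 female and WT 0, but the 154Q-AXH brainstem, without 154Q-AXH-217, also held 0. In the cortex the library of WT-221 had the female pattern.

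Among the 10 genes, Zic1 and Zic4 are neighbours. They lie at chr9:91358058-91365810 on the minus strand and chr9:91362413-91389348 on the plus strand of GRCm38.p6. These annotated spans overlap and share 60 exon bases, whereas from the RefSeq starts used below the genes are read away from each other. RefSeq promoter windows, from 250 bases before to 50 bases after a start, were found for 7 of the 10 genes (11 windows). The windows of this pair, chr9:91365719-91366018 and chr9:91368722-91369021, are 2704 bases apart and are shown because both genes had their highest level in the cerebellum from starts this close. Capitals mark CG dinucleotides.
Zic1: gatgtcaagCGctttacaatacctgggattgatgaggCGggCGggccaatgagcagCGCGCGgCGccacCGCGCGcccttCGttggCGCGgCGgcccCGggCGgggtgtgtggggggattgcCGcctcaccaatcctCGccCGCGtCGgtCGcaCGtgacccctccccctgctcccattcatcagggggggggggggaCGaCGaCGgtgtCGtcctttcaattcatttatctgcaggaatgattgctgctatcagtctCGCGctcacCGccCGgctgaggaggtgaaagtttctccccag
Zic4: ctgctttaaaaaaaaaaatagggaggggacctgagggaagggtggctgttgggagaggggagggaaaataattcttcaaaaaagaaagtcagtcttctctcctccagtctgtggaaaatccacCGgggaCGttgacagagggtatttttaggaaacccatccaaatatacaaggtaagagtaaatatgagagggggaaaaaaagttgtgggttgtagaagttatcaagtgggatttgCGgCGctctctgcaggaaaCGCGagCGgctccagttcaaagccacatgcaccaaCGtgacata

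The Zic1 window held 31 CG dinucleotides, a number reached by 10.6% of the 32851 RefSeq windows, and the Zic4 window held 8, reached by 48.6%, with a median of 7. CIC binds the octamers TGAATGAA and TGAATGGA, which differ at 1 base and so cannot be the same match. On both strands, the first was in 1.3% of all windows and the second in 1.21%. Neither was in any of the 11 windows of the member genes, which says only that these letters are not there.

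The other members lie apart. Neurod1 is at chr2:79452521-79456751 (minus strand), Pax6 at chr2:105668900-105697364 (plus), Zic2 at chr14:122475435-122479852 (plus), Cbln3 at chr14:55878913-55884392 (minus), Cbln1 at chr8:87468405-87472609 (minus), Calb2 at chr8:110137502-110168210 (minus), Reln at chr5:21884454-22344702 (minus) and Chn2 at chr6:54039554-54301810 (plus). Counting did not use strand. Neurod1 shares 13.01% of its exon bases with other annotated genes, Chn2 10.6%, Zic4 5.11%, and the remaining members at most 1.05%, so reads in those stretches cannot be assigned to 1 gene.

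To check the name these genes go by, their levels in WT mice were compared between regions. All 10 genes were highest in the cerebellum, where the lowest of the 4 libraries lay above every library of every other region. Levels here are CPM on 1 scale for all 59 libraries, and differences are log2 fold changes fitted by edgeR, tested by quasi-likelihood, with p adjusted over all genes tested after Benjamini and Hochberg and called when under 0.05. All 10 passed this test against each region, where 33.4% of the 22200 genes tested were called higher in the cerebellum than in the brainstem, 32.8% against the hippocampus, 35.9% against the striatum and 36.6% against the cortex. With a difference of over 4-fold as well, 9 members passed against the brainstem, where 3.52% of all genes did, and 10 passed against the hippocampus (4.12%), the striatum (6.59%) and the cortex (6.2%).

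Cbln3 had the steepest gradient of the members against every region. This partner of Cbln1 measured 1570 ± 99.1 CPM (SD, n = 4 mice, as below) in the cerebellum. It fell to 31.2 ± 15.8 in the brainstem, 3.50 ± 4.43 in the cortex, 0.986 ± 0.709 in the hippocampus and 0.787 ± 0.483 in the striatum. The last 3 regions overlapped in range, and the log2 fold change from the cerebellum to the striatum was 10.99 (SE 0.71). Cbln1, the best known cerebellin of these synapses, had a cerebellar level of 841 ± 32.2 and levels of 77.5 ± 10.3 in the brainstem, 26.4 ± 11.5 in the cortex, 8.70 ± 1.67 in the striatum and 6.96 ± 4.23 in the hippocampus. For Cbln1 the hippocampal libraries overlapped both the striatal and the cortical ones.

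Of the transcription factors, Neurod1, a basic helix-loop-helix factor of neuronal differentiation, measured 395 ± 29.9 CPM in the cerebellum and 22.9 ± 1.72 in the hippocampus, which stood above the cortex (11.8 ± 1.04) without overlap. The zinc-finger factors Zic1 (1206 ± 106), Zic2 (284 ± 8.84) and Zic4 (57.3 ± 3.76) shared an order of cerebellum, brainstem and hippocampus. Brainstem Zic1 (102 ± 16.3) did not overlap the hippocampus (30.8 ± 17.9), whereas for Zic2 (19.0 ± 1.84 and 16.1 ± 6.02) and Zic4 (10.5 ± 1.98 and 6.61 ± 3.73) these regions overlapped. Pax6, a paired-box factor of granule cell precursors, fell from 123 ± 12.8 in the cerebellum to between 10.5 and 12.4 in the other 4 regions, whose neighbours in order all overlapped.

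The remaining members are a secreted signal, a calcium-binding protein and a GTPase regulator. Reln, the secreted glycoprotein that signals through Vldlr and Lrp8 to Dab1, measured 326 ± 55.9 CPM in the cerebellum and 65.5 to 79.2 in the means of the other regions, all overlapping, with log2 fold changes of 2.04 to 2.30. Calb2, the calcium-binding protein calretinin, measured 418 ± 8.28 in the cerebellum and 149 ± 4.93 in the brainstem, a log2 fold change of 1.47 (SE 0.22) and the only one under 4-fold, then 31.6 ± 11.5 in the hippocampus, 12.9 ± 2.31 in the cortex and 11.5 ± 5.34 in the striatum. Chn2, a chimaerin that switches off the small GTPase Rac, measured 578 ± 39.3 in the cerebellum and 22.5 to 51.7 elsewhere.

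**Figure D1:**
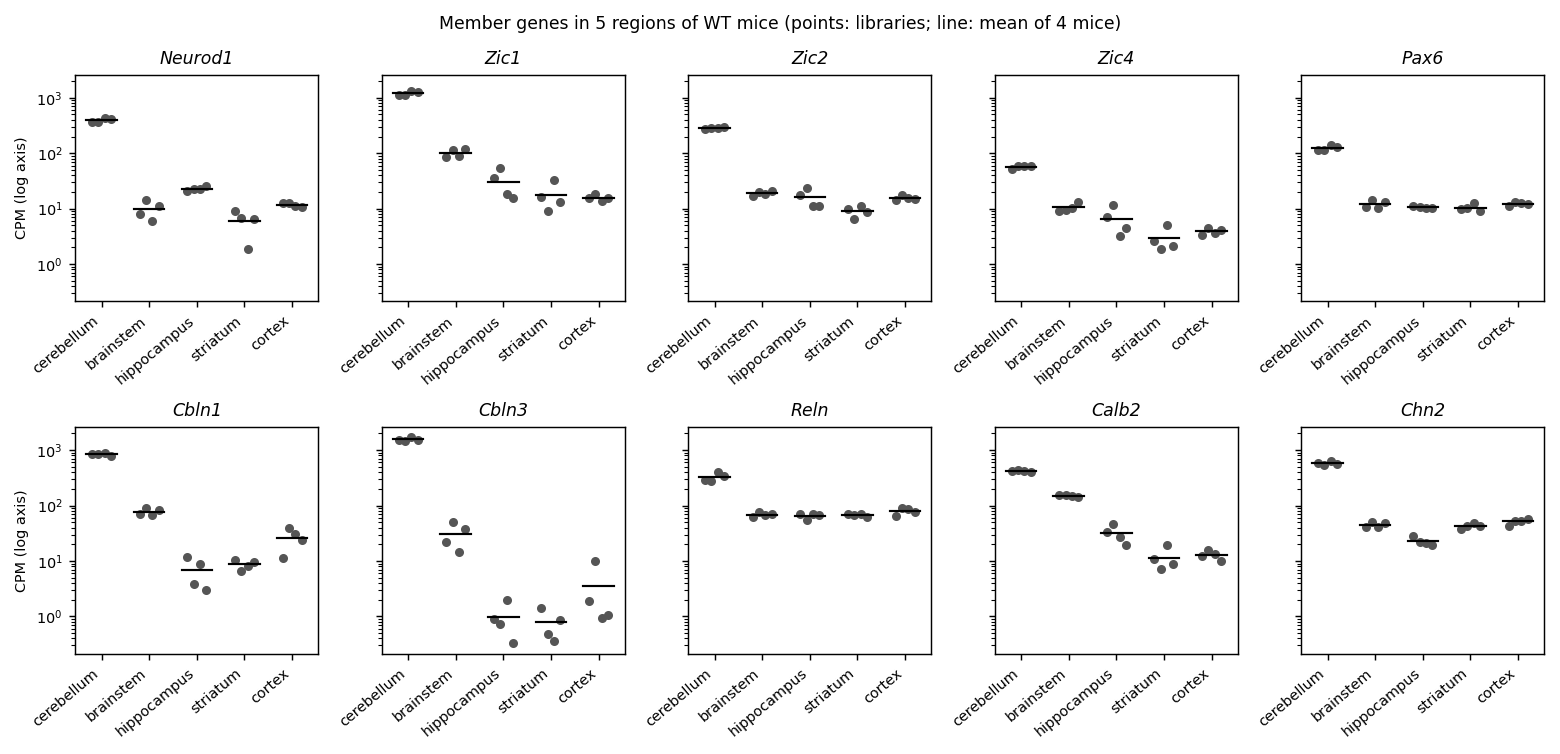
Level of each of the 10 genes in 5 regions of WT mice, in CPM on a log axis shared by all panels, with 1 point per library and a line at the mean of 4 mice. In every panel the cerebellar points lie above those of all other regions, by the most for Cbln3 and the least for Calb2 against the brainstem.

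Set per kilobase of exon so that genes can be compared, the WT cerebellum held most Cbln3 (323 CPM per kb), then Cbln1 (277), Calb2 (240), Zic1 (212) and Neurod1 (145), none of which overlapped their neighbours in that order. Chn2 (99.4) and Zic2 (98.7) overlapped, as did Reln (13.7) and Pax6 (10.6), and Zic4 was lowest (5.54). The members therefore covered a wide range of levels in the same tissue.

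In the cerebellum of Atxn1 154Q/2Q mice 5 of the 10 genes were called: Neurod1, Zic2, Cbln1 and Chn2 were lower than in WT mice, and Calb2 was higher. The share called over all 20874 genes tested was 5.22%, though the 10 genes were not chosen blind to these data. The lower members fell by 11.5% to 21.6% and Calb2 rose by 42.7%, so each change was small beside the regional differences. In these bulk samples fewer cells of a type and less RNA per cell cannot be told apart. CPM within a region are scaled on that region's libraries alone, and values are given in ascending order of mouse number.

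Among the transcription factors, Neurod1 measured 383, 381, 430 and 409 CPM in WT mice and 344, 333, 347 and 362 in Atxn1 154Q/2Q mice. All 4 mutant libraries lay below all 4 WT libraries, and the log2 fold change was -0.21 (SE 0.042, adjusted p = 0.00834). Zic2 measured 280, 298, 284 and 293 in WT mice and 255, 256, 243 and 269 in Atxn1 154Q/2Q mice, again without overlap, at -0.18 (SE 0.048, adjusted p = 0.0471). The Zic2 call was near the threshold: it was lost in 8 of the 12 fits that left out 1 library, among them those without 154Q-75 (-0.15, adjusted p = 0.134), WT-77 (0.0717), WT-220 (0.0641) and WT-221 (0.0987).

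The other factors did not pass. Zic1 was 1150, 1152, 1306 and 1291 in WT mice and 1123, 1113, 1065 and 1138 in Atxn1 154Q/2Q mice, lower in all 4 libraries but with an adjusted p of 0.0916 (-0.14, SE 0.045). Without WT-70 or WT-77, the lower pair of the WT libraries, its adjusted p was 0.0453 or 0.0308. Zic4 overlapped throughout, at 53.3 to 61.1 in WT mice and 55.2 to 59.1 in mutant mice, with a log2 fold change of -0.03 (95% interval -0.12 to 0.06). Pax6 overlapped as well, at 116 to 139 and 130 to 139, with a change of 0.08 (interval -0.03 to 0.19).

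Of the synaptic proteins, Cbln1 measured 866, 881, 873 and 800 CPM in WT mice and 752, 712, 652 and 780 in Atxn1 154Q/2Q mice. The groups did not overlap and the log2 fold change was -0.24 (SE 0.052, adjusted p = 0.0132). Its partner Cbln3 measured 1575, 1542, 1712 and 1552 against 1438, 1407, 1448 and 1504, also without overlap, but at -0.14 (SE 0.042) its adjusted p was 0.0749, and 0.0452 without WT-77. Chn2 had the largest decrease among the members, from 598, 559, 631 and 561 in WT mice to 451, 466, 458 and 467, with all mutant libraries far below WT, at -0.35 (SE 0.041, adjusted p = 0.000154).

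Calb2 moved the other way, from 429, 444, 418 and 411 CPM in WT mice to 620, 625, 553 and 630 in Atxn1 154Q/2Q mice. Every mutant library was above every WT library, and the log2 fold change was 0.51 (SE 0.046, adjusted p = 1.52e-05). Reln ranged from 287 in WT-77 to 398 in WT-220, and its mutant libraries (315 to 385) lay inside that range, at 0.07 (interval -0.11 to 0.24). In all, 7 of the 10 genes had groups that did not overlap, 6 lower and 1 higher, against 10.1% of all genes. The median log2 fold change of the 10 was -0.14, beside 0.00 over all genes tested.

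**Figure D2:**
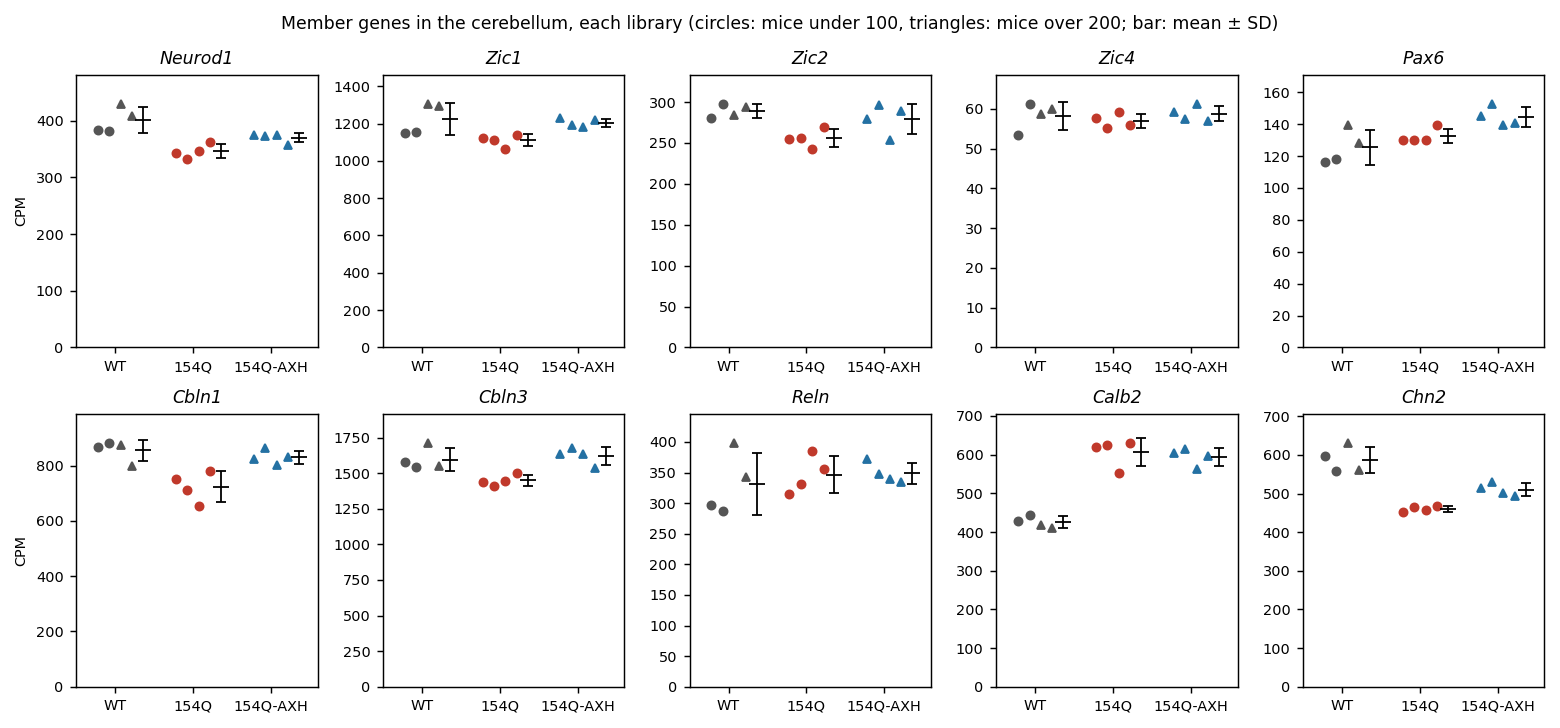
CPM of the 10 genes in each cerebellar library, by genotype, on linear axes from 0, with circles for mice numbered under 100 and triangles for mice numbered over 200, and a bar for the mean ± SD. Chn2 falls from 559 to 631 CPM in WT mice to 451 to 467 in 154Q mice with 154Q-AXH between, while Calb2 is above all WT libraries in both mutant genotypes.

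In the cerebellum of 154Q-AXH mice, in which the expanded ATXN1 carries the substitutions made to disrupt its binding to CIC while the 2Q allele does not, 2 of the 10 genes were called against WT: Calb2 was higher and Chn2 lower. The share called over all genes was 2.21%. Calb2 measured 604, 615, 562 and 597 CPM, all above WT, at 0.48 (SE 0.046, adjusted p = 9.81e-05). Chn2 measured 515, 531, 501 and 493, all below WT and all above Atxn1 154Q/2Q, at -0.20 against WT (SE 0.041, adjusted p = 0.0202), and this call was lost without 154Q-AXH-207 (0.0687), 154Q-AXH-217 (0.0719) or 154Q-AXH-218 (0.065).

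Neurod1 measured 374, 374, 374 and 358 CPM in 154Q-AXH mice, below all WT libraries but at -0.12 (SE 0.042) with an adjusted p of 0.194. Pax6 measured 145, 153, 139 and 141, at 0.20 (SE 0.055, adjusted p = 0.0723), and 0.0163 without WT-220, its highest WT library. The other 6 genes had adjusted p values from 0.715 to 0.94. Non-overlapping groups were seen for 3 genes (Neurod1, Chn2 and Calb2), against 8.82% of all genes.

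A direct comparison asked whether the 2 mutant genotypes differed from each other. None of the 10 genes was called between 154Q-AXH and Atxn1 154Q/2Q mice by edgeR, where 0.0335% of all genes were (7 genes). At an unadjusted p under 0.05, 7 of the 10 and 1586 of 20874 genes passed, and DESeq2 called 124 genes. The estimate was above 0 for 9 of the 10 genes, with a median of 0.12 beside -0.01 over all genes. Zic1, Cbln1, Cbln3 and Chn2 had all 154Q-AXH libraries above all Atxn1 154Q/2Q libraries, against 6.05% of genes with non-overlapping groups. The difference was 0.20 for Cbln1 (interval 0.10 to 0.30, adjusted p = 0.322), 0.16 for Cbln3 (0.08 to 0.24, adjusted p = 0.309) and 0.15 for Chn2 (0.07 to 0.23, adjusted p = 0.374). Calb2 differed by -0.03 (interval -0.12 to 0.06). With the number series as a covariate again no member was called (80 of all genes were), and the estimate was above 0 for 5 of the 10 genes: Cbln1 was 0.26 (SE 0.083, adjusted p = 0.139), Cbln3 0.09 (0.453), Chn2 0.10 (0.43) and Reln -0.33 (SE 0.10, adjusted p = 0.13). These comparisons share the Atxn1 154Q/2Q libraries with those against WT.

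Since the mutant genotypes come from different number series, each was also compared with the 2 WT mice of its own series, a comparison chosen after the values were seen. Calb2 and Chn2 were called in both, at 0.47 and -0.33 in Atxn1 154Q/2Q mice (adjusted p = 0.0049 and 0.00656) and at 0.52 and -0.22 in 154Q-AXH mice (2.54e-05 and 0.0111). Neurod1 was -0.15 in Atxn1 154Q/2Q mice (0.175) and -0.18 in 154Q-AXH mice (0.00798). Cbln1 was -0.28 in Atxn1 154Q/2Q mice (0.0771) and -0.01 in 154Q-AXH mice (0.892). Thus against WT mice of the same series 2 and 4 members were called, in place of 5 and 2, with Zic1 as the fourth in 154Q-AXH mice (-0.11, adjusted p = 0.0348).

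Other genes known from granule cells were followed in the same libraries. Of 21 such genes, 20 were tested (Atoh1, the factor of dividing precursors, had 0 to 0.0364 CPM in all 12 libraries). In Atxn1 154Q/2Q mice 3 were lower and 1 higher, with a median of -0.08, where 5.22% of all genes were called. Grm4, the glutamate receptor of parallel fibre terminals, measured 346 to 395 CPM in WT mice, 195 to 220.7 in Atxn1 154Q/2Q mice and 252 to 292 in 154Q-AXH mice. The 3 groups did not overlap, and all comparisons were called: -0.84 (SE 0.057, adjusted p = 1.11e-06), -0.42 (SE 0.057, adjusted p = 0.00156), and 0.42 between the mutant genotypes (SE 0.057, adjusted p = 0.0236). Neurod2, a relative of Neurod1, was -0.22 (adjusted p = 0.0143), the neuronal marker Rbfox3 -0.14 (0.0412), and the vesicle release gene Cadps2 0.27 (0.0142) in Atxn1 154Q/2Q mice. In 154Q-AXH mice 3 were higher, Barhl2, Cdh15 and Cadps2, and only Grm4 was lower, where 2.21% of all genes were called. Gabra6 and Fat2, which are close to granule cell specific, were not called in either genotype (-0.11 and -0.13 in Atxn1 154Q/2Q mice, adjusted p = 0.358 and 0.575), and the summed level of the 21 genes was 5714 to 6778 CPM in WT, 5717 to 5893 in Atxn1 154Q/2Q and 6074 to 6402 in 154Q-AXH libraries.

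Among 15 paralogs and partners of the members, 2 were lower and 2 higher in the Atxn1 154Q/2Q cerebellum (5.22% of all genes called). None was called in 154Q-AXH mice (2.21%). Lrp8, a receptor of Reln, was among the lower genes, at -0.24 (adjusted p = 0.0267). Cbln2 was called higher at 3.50 (SE 0.94, adjusted p = 0.0439) on the strength of 2 libraries: 154Q-71 and 154Q-75 measured 4.94 and 5.04 CPM, while 154Q-69 and 154Q-76 (0.317 and 0.315) lay in the WT range of 0.15 to 0.373.

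Markers of other cerebellar cells moved in the same libraries. Over all genes, 5.22% were called in Atxn1 154Q/2Q mice (3.12% lower) and 2.21% in 154Q-AXH mice (1.13% lower). Of 9 Purkinje cell genes, 7 were lower in Atxn1 154Q/2Q mice (Rgs8 -0.57, Car8 -0.39, Calb1 -0.36 and Ppp1r17 -0.28 had the lowest p values) and 3 in 154Q-AXH mice, with a summed level of 9465 to 10579 CPM in WT, 7373 to 7991 in Atxn1 154Q/2Q and 8092 to 8719 in 154Q-AXH libraries. Of 5 genes of unipolar brush cells, a glutamatergic interneuron that can also hold calretinin, 2 were lower in both genotypes, with summed levels of 899 to 999, 793 to 863 and 838 to 861. Eomes, the factor that defines these cells, measured 24.1, 23.9, 36.6 and 42.5 CPM in WT mice, 9.72, 14.9, 11.95 and 12.99 in Atxn1 154Q/2Q mice and 11.6, 8.30, 13.5 and 14.1 in 154Q-AXH mice. Both mutant groups were below WT, at -1.36 (SE 0.20, adjusted p = 0.000942) and -1.43 (SE 0.20, adjusted p = 0.00207), in the libraries in which Calb2 was higher. Gdf10 of Bergmann glia was lower in both genotypes (-0.42 and -0.38, 1 of 6 glial genes), and Lhx5, taken from a list of 3 Cajal-Retzius genes but also used in the cerebellum, in Atxn1 154Q/2Q mice (-0.38). The interneuron, oligodendrocyte and choroid plexus lists had no call, though the choroid plexus sum ran from 225 to 5031 CPM over the libraries. The part of these changes in the members' values was not tested.

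In the brainstem 1 of the 10 genes was called in Atxn1 154Q/2Q mice, against 0.538% of 21754 genes, and it was Calb2, here lower than in WT. Calb2 measured 157, 154, 148 and 148 CPM in WT mice and 114, 118, 120 and 130 in Atxn1 154Q/2Q mice, without overlap, at -0.34 (SE 0.067, adjusted p = 0.0489). In 154Q-AXH mice it measured 129, 166 and 139, which spanned the WT range, at -0.07 (interval -0.21 to 0.07). The estimate ran from -0.18 to 0.005 over the alternative settings. The values 129 and 139 lay below all WT libraries. The value 166 was that of 154Q-AXH-209, the brainstem library with the most Gabra6 (65.3 CPM, against 7.06 to 28.4 in WT). The part of granule cell RNA in that value was not tested. No member was called in 154Q-AXH against WT (0.0138% of all genes, with 0 of 10 members at an unadjusted p under 0.05 and 1465 of all genes) or between the mutant genotypes (0% of all genes, 1 member and 1163 genes at an unadjusted p under 0.05, and 33 genes by DESeq2). The call in Atxn1 154Q/2Q mice did not hold in 8 of the 11 fits that left out 1 library, each of the 4 without a WT library among them (0.12, 0.124, 0.137 and 0.104 without WT-221, WT-220, WT-70 and WT-77), and was 0.127, 0.13 and 0.0924 without 154Q-69, 154Q-71 and 154Q-75 and 0.0682 without 154Q-AXH-218.

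The opposite signs in cerebellum and brainstem were compared directly, a test chosen after the values were seen. In a fit of the 23 libraries of these regions the Atxn1 154Q/2Q change of Calb2 was higher in the cerebellum by 0.85 (SE 0.087, adjusted p = 1.08e-05), where 0.65% of 22930 genes were called and no other member was. With the mouse as a replicate block it was 0.85 (adjusted p = 0.00105). In the fit of all 59 libraries, in which hippocampal and striatal libraries with outlying Calb2 enter the spread, the difference was again 0.85 but with an SE of 0.52 and an adjusted p of 0.961.

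**Figure D3:**
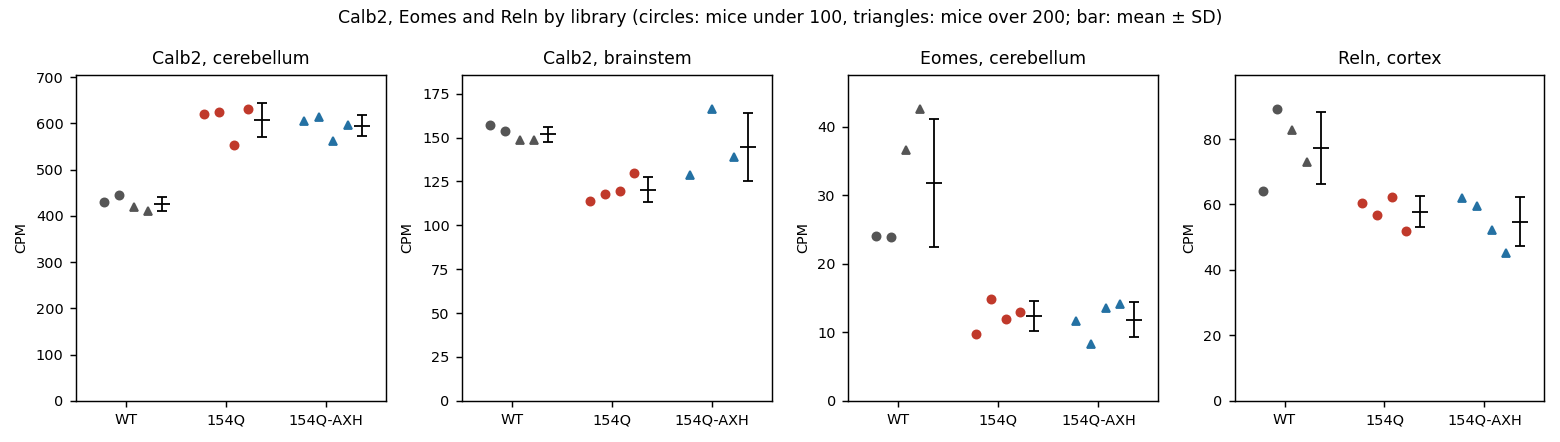
CPM by library of Calb2 in the cerebellum and in the brainstem, Eomes in the cerebellum and Reln in the cortex, by genotype, with circles for mice numbered under 100, triangles for mice over 200 and a bar for the mean ± SD. Calb2 is above WT in both mutant cerebella and below WT in the 154Q brainstem, Eomes is below WT in both mutant cerebella, and cortical Reln is below all WT libraries in both mutant genotypes.

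The other members varied widely in the brainstem, and they varied together with granule cell markers. Gabra6, a receptor subunit of granule cells, ranged from 4.73 CPM in 154Q-AXH-207 to 65.3 in 154Q-AXH-209, with WT libraries at 7.06 to 28.4 and Atxn1 154Q/2Q libraries at 9.44 to 49.6. Cbln3 ran from 12.4 to 112 CPM and Neurod1 from 5.11 to 29.5 in those same 154Q-AXH libraries. On the log2 scale over the 11 libraries, Pearson's r with Gabra6 was 0.993 for Cbln3 and 0.986 for Neurod1 (Spearman's rho 0.991 for both), and each had a two-sided permutation p of 1e-05, the smallest that 100000 permutations can give (5e-05 after adjustment over the 10 relations).

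A further 6 members followed Gabra6: Zic1 (r = 0.937, rho = 0.873), Chn2 (0.923, 0.927), Pax6 (0.918, 0.836), Zic2 (0.889, 0.918), Cbln1 (0.838, 0.873) and Reln (0.700, 0.673), with permutation p values after adjustment of 0.0001 to 0.0256 for r and 0.0005 to 0.0353 for rho. Zic4 (r = 0.493, rho = 0.509, adjusted permutation p = 0.138 and 0.126) and Calb2 (r = 0.134, rho = 0.191, 0.689 and 0.578) did not pass. Without 154Q-AXH-207 and 154Q-AXH-209, the libraries farthest from the median of Gabra6, r was 0.991 for Cbln3, 0.986 for Neurod1, 0.671 for Reln and -0.24 for Calb2. Within the 6 libraries of mice numbered under 100, r was 0.994 for Cbln3, 0.995 for Neurod1 and -0.12 for Calb2, and the 5 libraries of mice over 200 were too few. Gabra6 and the members share each library's depth and dissection. The same relation was not computed for all brainstem genes, so the share of them that would pass is not known. The WT brainstem level of Calb2 was 35.7% of its cerebellar level, the highest share of any member.

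**Figure D4:**
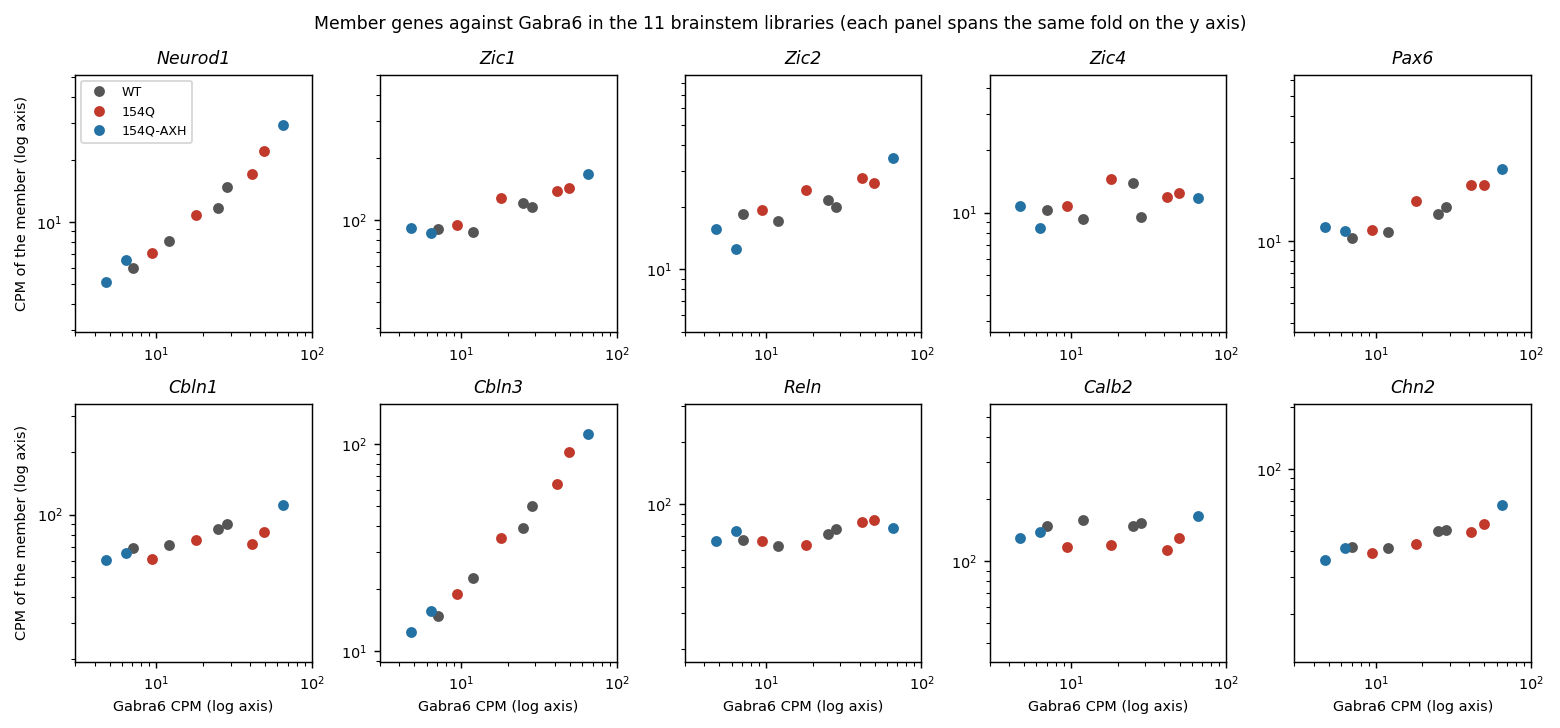
CPM of each of the 10 genes against CPM of Gabra6 in the 11 brainstem libraries, both on log axes, with the same fold range on every y axis and 1 color per genotype. Cbln3 and Neurod1 rise with Gabra6 along a line over all genotypes, whereas Calb2 stays between 114 and 166 CPM from the lowest to the highest Gabra6.

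In the hippocampus no member was called in either mutant genotype, where 5.91% of 21454 genes were called in Atxn1 154Q/2Q mice and 1.3% in 154Q-AXH mice, nor between them (0%). At an unadjusted p under 0.05 there were 0, 1 and 1 members beside 4617, 3193 and 2356 genes, and DESeq2 called 1 member, in 154Q-AXH mice. That gene was Neurod1, which dentate gyrus granule cells also use. It measured 21.5, 23.3, 22.6 and 25.4 CPM in WT mice, 23.7, 24.5, 28.0 and 19.1 in Atxn1 154Q/2Q mice and 25.0, 34.2, 31.8 and 45.4 in 154Q-AXH mice. The 154Q-AXH group overlapped WT only through 154Q-AXH-207, and the difference was 0.55 (SE 0.16, adjusted p = 0.105), with 0.0188 by DESeq2 and 0.0391 without 154Q-AXH-207. The highest library, 154Q-AXH-218, also had the highest summed dentate granule cell markers, 699 CPM against 256 to 369 in WT, 174 to 230 in Atxn1 154Q/2Q and 257 to 355 in the other 154Q-AXH libraries.

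Library 154Q-76, with its brainstem markers, set the Atxn1 154Q/2Q estimates for 3 members. Cbln1 was 34.3 CPM there and 4.39 to 8.74 in the other 3 libraries, Cbln3 was 3.62 against 0.555 to 0.987, and Calb2 was 78.2 against 22.1 to 22.8. The log2 fold change against WT was 0.96 for Cbln1 with the library and -0.12 without it, 0.71 and -0.27 for Cbln3, and 0.19 and -0.53 for Calb2, and none was called either way (0 members in any hippocampal comparison without it). Among the WT libraries WT-77 had the most Zic1, Zic2 and Zic4 (54.8, 24.1 and 11.8 CPM), and WT-220 and WT-221 the least (18.4 and 15.4, 11.4 and 11.4, 3.24 and 4.55).

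In the striatum no member was called in either mutant genotype or between them, where 5.69%, 1.35% and 0% of 18408 genes were, and none had an unadjusted p under 0.05, beside 4339, 2320 and 601 of all genes (DESeq2 called no member). All 10 were low here, with Reln highest. Reln measured 61.8 to 70.8 CPM in WT mice, 49.6 to 89.2 in Atxn1 154Q/2Q mice and 46.3, 83.0, 130 and 46.4 in 154Q-AXH mice. The library at 130, 154Q-AXH-217, and WT-220 stood apart in Cadps2 (31.1 and 37.0 CPM, others 94.0 to 145) and Neurod2 (27.0 and 38.2, others 85.4 to 122), and no member was called with either left out. Cortical libraries held 74.6 to 126 CPM of Cadps2 and 109 to 142 of Neurod2. The other striatal libraries overlapped these cortical levels in both genes, whereas 154Q-AXH-217 and WT-220 lay below them. How much cortical tissue the striatal libraries held was not tested. Calb2 was 51.4 CPM in 154Q-75 and 5.99 to 6.53 in the other Atxn1 154Q/2Q libraries, and its change against WT was 0.62 with that library and -0.86 (adjusted p = 0.233) without it. The same library had olfactory bulb markers at a summed 57.3 CPM, against 5.38 to 12.4 in the other 11.

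In the cortex 1 of the 10 genes was called in each mutant genotype, where 11.1% of 18610 genes were called in Atxn1 154Q/2Q mice and 7.15% in 154Q-AXH mice, and none between them (0%, with 1 member and 1241 genes at an unadjusted p under 0.05 by edgeR). The gene was Reln, lower in both. It measured 64.2, 89.0, 82.8 and 73.0 CPM in WT mice, 60.4, 56.9, 62.3 and 51.8 in Atxn1 154Q/2Q mice and 61.9, 59.4, 52.1 and 45.3 in 154Q-AXH mice. All 8 mutant libraries lay below all WT libraries, of which WT-70 was the lowest. The log2 fold changes were -0.42 (SE 0.10, adjusted p = 0.0175) and -0.50 (SE 0.10, adjusted p = 0.00864), and the difference between the mutant genotypes was -0.08 (interval -0.29 to 0.12).

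The Reln calls held when the 2 doubtful cortical libraries were exchanged (-0.36 and -0.57), with that pair removed (-0.37 and -0.56) and without WT-221 (-0.44 and -0.53), and the first was lost without WT-220 (-0.38, adjusted p = 0.0579). With the number series as a covariate both were lost (adjusted p = 0.102 and 0.051). Against WT mice of the same series the Atxn1 154Q/2Q change was -0.41 (adjusted p = 0.162). Cortical Reln comes from interneurons and Cajal-Retzius cells. Of 7 forebrain interneuron markers, 5 were lower in both genotypes (Vip, Sst, Npy, Gad1 and Lamp5), where 11.1% and 7.15% of all genes were called. The summed levels of the 7 were 1044 to 1164 CPM in WT, 675 to 816 in Atxn1 154Q/2Q and 745 to 811 in 154Q-AXH libraries. Neither of the 2 Cajal-Retzius genes tested was called (summed levels of the list 10.8 to 14.9, 10.0 to 17.1 and 10.5 to 12.6). Those sums were mostly Ndnf (9.17 to 15.2 CPM over all cortical libraries), with Trp73 at 0.305 to 2.75, so they are close to a measure of 1 gene. The part of these markers in the Reln values was not tested.

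Cbln3, Cbln1 and Chn2 also had cortical estimates below 0 that were not called. Cbln3 was 9.87 CPM in WT-77 and 0.906 to 1.86 in the other WT libraries, and its change in Atxn1 154Q/2Q mice was -1.84 (SE 0.70, adjusted p = 0.110) with WT-77 and -0.35 (adjusted p = 0.579) without it. WT-77 also had the most Gabra6 (5.64 CPM, against 0.0242 to 1.75 in the other 11 libraries) and Fat2 (4.45, against 0.315 to 1.13). Cbln1 was 11.2, 37.6, 30.2 and 23.7 in WT mice and 8.12 to 17.997 in Atxn1 154Q/2Q mice, at -0.94 (SE 0.33, adjusted p = 0.0821), and Chn2 was -0.32 (SE 0.12, adjusted p = 0.0997). Of the 21 other granule cell genes, 18 were tested in the cortex. In Atxn1 154Q/2Q mice 5 were lower and 1 higher, where 11.1% of all genes were called. Gabrd (-1.15, adjusted p = 2.28e-05) and Grm4 (-0.91, adjusted p = 4.53e-06) had the lowest p values, and both are also used by cortical neurons. In the brainstem none of this list was called. In the hippocampus and striatum 3 were lower in Atxn1 154Q/2Q mice and 1 in 154Q-AXH mice. In the 154Q-AXH cortex 4 were lower and 1 higher, where 7.15% of all genes were called. The shares over all genes in the other regions are given above. Of the 15 paralogs and partners, the cortex had 3 lower in each genotype, the striatum 1 in each, the hippocampus 2 in Atxn1 154Q/2Q and 0 in 154Q-AXH mice, and the brainstem 0. Chn1, the paralog of Chn2, was among the lower genes in every one of these forebrain comparisons but the 154Q-AXH hippocampus.

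**Figure D5:**
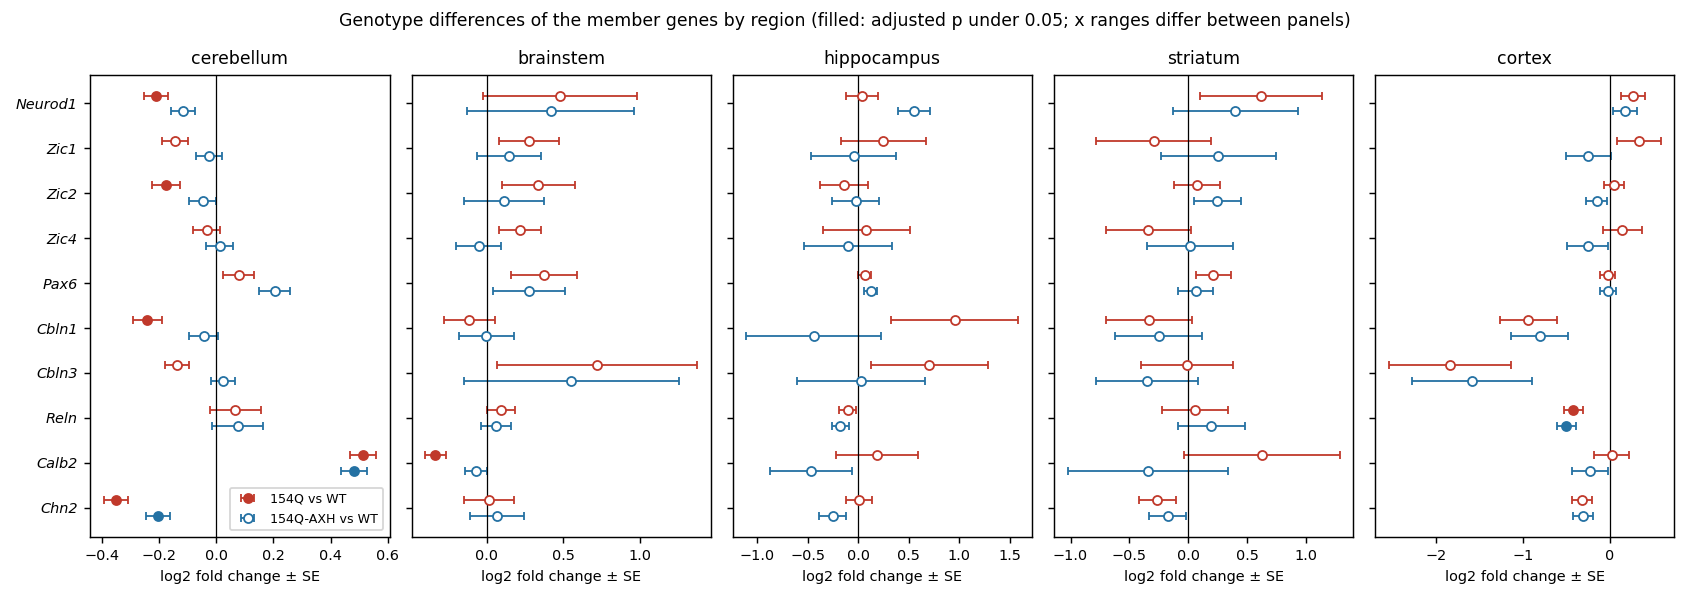
Log2 fold change against WT of the 10 genes in each region, with SE bars, for Atxn1 154Q/2Q and 154Q-AXH mice, filled where the adjusted p is under 0.05, with an x range of its own in each panel. The filled points are 7 in the cerebellum, 1 in the brainstem (Calb2) and 2 in the cortex (Reln).

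Whether the genotype difference itself varied over the 5 regions was tested with the 4 region-by-genotype terms in 1 fit of all 59 libraries. No member passed, for Atxn1 154Q/2Q (6.65% of 24290 genes called) or for 154Q-AXH (1.33%). Cbln1 had the lowest p in Atxn1 154Q/2Q mice (0.0395, adjusted p = 0.213) and Reln in 154Q-AXH mice (0.0471, adjusted p = 0.516), the only members under 0.05 before adjustment. Without the hippocampal library 154Q-76 the p of Cbln1 was 0.381 (adjusted p = 0.67), and the lowest was that of Cbln3 (0.0761). By DESeq2 and the other settings the lowest adjusted p of any member was 0.169, but DESeq2 gave no p for Calb2 in either genotype. So a call in the cerebellum and its absence elsewhere were not shown to differ by this test, and Calb2 differed between cerebellum and brainstem only in the fit of those regions.

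The gene most like each member over the 15 region-by-genotype means was found among 16769 genes by Pearson's r of log2 CPM, as a description. Regional differences make up most of these profiles. Cbln3 was closest to Fat2 (r = 0.999), Zic1 and Zic4 both to Barhl2 (0.997 and 0.993), Zic2 to 2610035F20Rik (0.998), Pax6 to Cdc42bpg (0.996), Cbln1 to Gria4 (0.995), Chn2 to Triobp (0.995), Calb2 to Fam13a (0.995), Neurod1 to Gsap (0.993) and Reln to Atp2a3 (0.991).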

How the data were processed

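RNA-seq libraries with poly(A) selection were trimmed by the authors with Trimmomatic 0.36 and aligned to GRCm38.p6 by STAR 2.7.2d, using GENCODE M18 gene models. The deposited values are raw counts of read pairs per gene, with no normalization. The column that ignores strand was used, since the first strand held 48.9% to 50.1% of stranded counts. The 4 summary lines (18.8% to 24.7% of all counts) and 1 line for a human transgene (at most 53 counts) were left out. Symbols were found for 54079 and positions for 54165 of 54232 genes in GENCODE M21. Gene symbols are those of the mouse genome.

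Counts were tested in each region with edgeR 4.0.16 (R 4.3.3): filterByExpr, TMM normalization, the quasi-likelihood test over all 3 genotypes without further covariates, and Benjamini-Hochberg adjustment over all genes tested at 0.05. WT regions and the region-by-genotype terms were fitted with the same tools. DESeq2 1.42.0 was an alternative. Intervals are 95% normal intervals from the fitted SE. Log2 CPM for the profiles over region-by-genotype means used a prior count of 2. The relations with Gabra6 used log2 of CPM without a prior count. Depth was 28058359 to 112343574 counts. On simulated data the scripts were tested for known changes.

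The members and gene lists were chosen with earlier results of these data known. Named were all 10 members, up to 4 genes per other list with the lowest p in the Atxn1 154Q/2Q cerebellum, and the gene most like each member. Others, such as Barhl2, Cdh15, Chn1, Gabrd, Fat2 and the cortical interneuron genes, were named after their values were seen. Some genes of the lists are counted but not reported by name here. Libraries with the same mouse number come from the same animal, as the labels give it. Of 116 same-mouse pairs of libraries 56 had deviations from their group means that correlated above 0.1 (range -0.54 to 0.65). Alternatives were DESeq2, its size factors, no filter, the counts of 1 strand, the number series or Ttr as a covariate, only the genotypes compared, WT mice of the same series (added after seeing the data), the mouse as a block across regions, and leaving out each library.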

Additional observations from a re-analysis of the deposited data

Results flagged for a closer look

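In 13 of 140 groups of 4 libraries, 1 library stood apart from the other 3 by Dixon's criterion (gap over range above 0.829), where chance gives about 1 in 20. In the cerebellum these were Pax6 in 154Q-76 (139 CPM, others about 130), Calb2 in 154Q-75 (553, others 620 to 630) and Neurod1 in 154Q-AXH-218 (358, others 374). In the hippocampus they were Cbln1 (34.3), Cbln3 (3.62) and Calb2 (78.2) in 154Q-76, the library with brainstem markers. In the striatum they were Calb2 in 154Q-75 (51.4), the library with olfactory bulb markers, Zic1 in 154Q-AXH-207 (40.7, others 12.2 to 16.9) and Cbln1 in 154Q-AXH-217 (2.71, others 8.18 to 9.20). In the cortex they were Cbln3 in WT-77 (9.87), Zic1 and Zic4 in 154Q-69 (35.5 and 6.37, others 13.3 to 16.1 and 3.56 to 3.58) and Zic4 in 154Q-AXH-217 (1.68, others 3.56 to 3.81). The Atxn1 154Q/2Q change of Calb2 differed between cerebellum and brainstem, by 0.85 on the log2 scale, in a test chosen after its values were seen. The lowest cerebellar Calb2 of each mutant group was in its only female, 154Q-75 or 154Q-AXH-217. All WT cerebella had the male pattern, and the part of sex was not tested.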

How the results depend on the processing

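The number of members called in the Atxn1 154Q/2Q cerebellum was 5, and 3 with the number series as a covariate, 3 with only the 2 genotypes fitted and 2 against WT mice of the same series. In the 154Q-AXH cerebellum it was 2, and 1 with only the 2 genotypes, 4 against WT of the same series and 1 to 3 leaving out 1 library. The brainstem call (1 in Atxn1 154Q/2Q mice) was 0 with the counts of 1 strand, the series or Ttr as a covariate or WT of the same series, and 0 to 1 leaving out 1 library. In the 154Q-AXH hippocampus it was 0, and 1 by DESeq2 and 0 to 1 leaving out 1 library. In the Atxn1 154Q/2Q cortex it was 1, and 2 without a filter, 3 with Ttr, 0 against WT of the same series and 0 to 2 leaving out 1 library. In the 154Q-AXH cortex it was 1, and 0 with the series, 2 with only the 2 genotypes, 2 against WT of the same series and 1 to 2 leaving out 1 library. Of 298 such alternative counts 267 stayed within 1.5 times, 22 were lower and 9 higher. None of the 11 called member values changed sign, whereas 82 of 149 uncalled ones did and 11 of them were called in some alternative. The cause of these changes was not tested.

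The mouse as a replicate block left the counts of members over 4-fold higher in the WT cerebellum at 9, 10, 10 and 10 and the interaction calls at 0, and the difference of Calb2 between cerebellum and brainstem called, whereas the fit of all 59 libraries gave 0 calls. The block changed no other call. Mice differ between genotypes, so no block could be fitted within a region. DESeq2 gave no p for Cbln3 between WT regions, so 8, 9, 9 and 9 members remained.

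Counts over all genes moved more than those of members. In the cerebellum, 1089 genes were called in Atxn1 154Q/2Q mice (1718 by DESeq2, 619 with only the 2 genotypes, 372 against WT of the same series), 462 in 154Q-AXH mice (160 to 2468 over the alternatives) and 7 between them (2 to 124). For Atxn1 154Q/2Q against WT, the brainstem count was 117 (395 by DESeq2, 19 with the series, 4 against WT of the same series), the hippocampal 1268 (2153, 675 and 73), the striatal 1047 (1725 by DESeq2, 234 with the series) and the cortical 2066 (797 with the series, 328 against WT of the same series). For 154Q-AXH against WT they were 3 in the brainstem (78 by DESeq2), 279 in the hippocampus (962 by DESeq2, 786 without 154Q-76, 111 with the series), 249 in the striatum (598 by DESeq2, 0 against WT of the same series, 610 without WT-220) and 1330 in the cortex (571 with the series, 868 without WT-221, 800 without the doubtful pair). Between the mutant genotypes DESeq2 called 33 genes in the brainstem and 46 in the hippocampus where edgeR called 0. The 154Q-AXH interaction count was 324 (557 by DESeq2), and the count between cerebellum and brainstem 149 (62 with the block, 46 with all 59 libraries). Depth of the striatal and cortical libraries was lower than elsewhere, and members there at a few CPM rest on fewer counts. With 4 mice per group, changes of the size seen for Zic1 or Cbln3 lay at the threshold.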
